A study of Homo sapiens with 6 samples.

Results

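The ERK pathway switches on genes that in many cases act back on it, and 10 of them were read from expression arrays of AGS cells after knockdown of C1GALT1. They were the dual-specificity phosphatases DUSP4, DUSP5 and DUSP6, the Sprouty-family inhibitors SPRY2, SPRY4 and SPRED1, the transcription factors ETV4, ETV5 and FOSL1, and PHLDA1. They were taken by name from a list written with earlier results of these data known, and were matched to the array through the RefSeq accession of each probe. The 10 genes, of 22434 genes with a symbol, had 11 of the 58201 gene probes, 1 for each gene except SPRY4, which had 2. AGS is a human gastric adenocarcinoma cell line. A first group of cells was transfected with nontargeting siRNA (si-Control) and the other with si-C1GALT1-3, 1 of several siRNAs against C1GALT1 in the study, each at 10 nM for 48 h in medium with serum. There were 3 samples in a group, each on a single-colour Agilent array of its own. C1GALT1 is the glycosyltransferase that extends the first sugar of mucin-type O-glycans, and the study asked which genes depend on it in gastric cancer cells. A single siRNA sequence stands for the knockdown here, so effects of that sequence on other genes cannot be told apart from those of C1GALT1.

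Growth factor receptors activate the Ras, Raf, MEK and ERK kinases in turn, and active ERK enters the nucleus and drives transcription through ETS and AP-1 factors. Some of the induced genes close the loop. DUSP4, DUSP5 and DUSP6 remove the phosphates that activate ERK, and Sprouty and Spred proteins block the steps between the receptor and Raf. ETV4, ETV5 and FOSL1 are transcription factors that carry the signal onwards, and transcripts of this kind are widely used as a readout of ERK output in tumor cells. In RNA from a whole culture, fewer cells that express a gene and less RNA in each cell cannot be told apart.

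All values are normalized log2 signals, in which 1 unit is 2-fold, and are listed in the order of replicates 1, 2 and 3. Fold changes are si-C1GALT1-3 over si-Control, with the standard error as SE. Between 66.2% and 72.7% of an array's gene spots were well above background and none was saturated, and the number of arrays limits the precision. Each replicate number was 1 slide that held both groups, always with the si-Control array in the same column, so position and treatment cannot be told apart. A central region of si-Control replicate 2 had low signals, with 36.5% of its gene spots well above background against 71.9% elsewhere on that array, and its spots were set to missing. A SPRY4 probe lay in this region, and the other 10 probes of the genes lay outside it. C1GALT1 itself (A_23_P252145) had 12.22, 13.03 and 12.62 with si-Control and 11.76, 11.98 and 11.13 with si-C1GALT1-3. The groups did not overlap, and C1GALT1 was 2.00-fold lower after its knockdown (log2 fold change -1.0, SE 0.31, adjusted p = 0.265 from limma over all probes), short of an unadjusted p under 0.01. All 7 epithelial markers were well above background on all 6 arrays. Among the 5 fibroblast markers, 3 were lower and 2 higher, with a median log2 fold change of -0.047 and none called. COL1A2 and LUM were not well above background on any array and DCN on 1, while COL1A1 had a log2 fold change of -0.05 (SE 0.24, 5 arrays) and COL3A1 one of 1.17 (SE 0.46). The 4 endothelial markers were all lower by fitted value, with a median of -0.44, none called and VWF the most negative at -1.03 (SE 0.29, 5 arrays). Of 4 leukocyte markers 3 were lower and 1 higher, with a median of -0.35 and none called. Against the epithelial label, the brightest probe of the leukocyte gene PTPRC had signals from 13.56 to 14.34 on all 6 arrays. The part of these genes in the results was not tested.

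The 10 ERK feedback and output genes were all lower in si-C1GALT1-3 cells by fitted value, as were 50.9% of all probes and 50.7% of those well above background on all 6 arrays. Their median log2 fold change was -0.72, against -0.0048 over all probes, and it was also -0.72 with DUSP5 set to its bound (described with that gene). The sizes were moderate, from 1.23-fold for FOSL1 to 2.43-fold for ETV4 among the 9 genes measured on all 6 arrays, and DUSP5 was not well above background after knockdown. For ETV4, ETV5, DUSP4 and SPRY2 the si-C1GALT1-3 arrays were all below the lowest si-Control array, 4 of 10 genes against 9.36% of the probes with 6 values and 10.8% of those well above background on all 6 arrays. No gene of the 10 passed the threshold of the study, an unadjusted p under 0.01 with at least 2-fold, which 577 of 58195 probes passed downward (0.991%) and 961 upward (1.65%). At an unadjusted p under 0.05, 4 of the 10 were lower (DUSP4, ETV4, ETV5 and DUSP5, the last from signals not all well above background) against 6.43% of all probes and 7.8% of those well above background on all 6 arrays. Adjusted over all probes, 49 probes (0.0842%) had an adjusted p under 0.05 in limma, the smallest at 0.0499, so all lay at the threshold itself. None of the 10 genes had an adjusted p under 0.05 in any setting. The direction was the same for all 10 genes under each normalization, each test and with each array left out in turn, and for the 9 that remained without dim probes. The count at p under 0.05 was less stable, with 1 gene, DUSP4, with no normalization between arrays, 7 with the slide as a block, 6 without si-Control replicate 3 and 3 or 4 in each other setting.

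**Figure D1:**
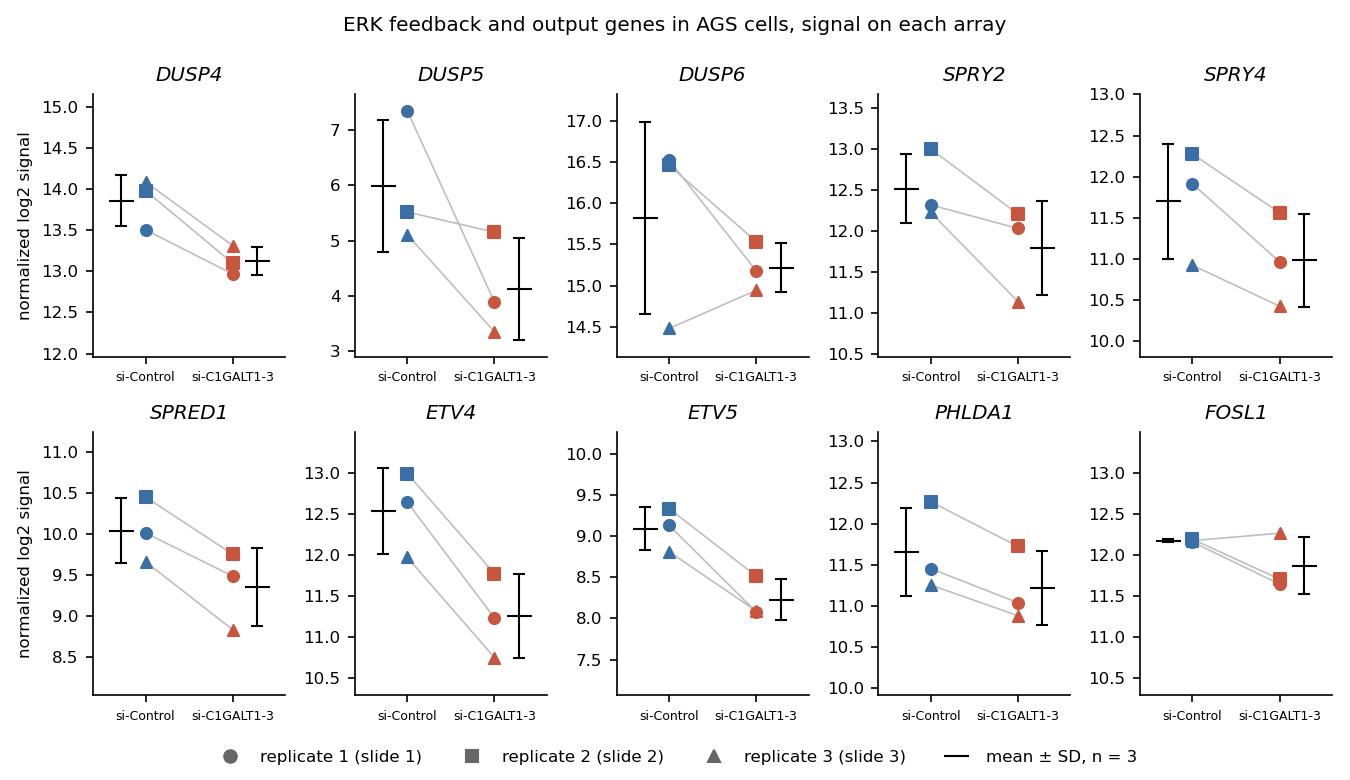
Normalized log2 signal (y axis) of the probe used for each of the 10 genes on the 3 si-Control arrays (blue) and the 3 si-C1GALT1-3 arrays (red). Grey lines join the arrays of 1 slide, and bars show mean ± SD, n = 3. The lines of 8 genes fall on every slide, and those of DUSP6 and FOSL1 climb on slide 3. DUSP5 was not well above background on any si-C1GALT1-3 array.

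The genes were lower within the slides as well, which removes what the arrays of a slide share. For 8 of the 10 genes, among them DUSP5 near background, the si-C1GALT1-3 array was the lower of the pair on all 3 slides. Of the probes with 6 values 21.8% were so, and 25.1% of those well above background on all 6 arrays. Among the 9 measured genes, 9 were lower on slide 1 with a median difference of -0.54, 9 on slide 2 with -0.79 and 7 on slide 3 with -0.72. Over all probes 50.3%, 49.5% and 50.6% were lower on these slides. The 2 exceptions were DUSP6 and FOSL1, both on slide 3. The genes also shared much of their spread between slides. Of the 9, 6 had their highest signal on si-Control array 2 and 5 had their lowest on si-C1GALT1-3 array 3. The shares of all probes with these extremes were not counted, so the pattern cannot be called particular to these genes. Centred on its own mean, the average gene lay at 0.38, 0.75 and -0.07 with si-Control and at -0.40, -0.04 and -0.62 with si-C1GALT1-3. Si-Control array 3 thus lay below the other si-Control arrays, near si-C1GALT1-3 array 2. Si-Control array 2, the highest, is the array with the low central region, and without it the median log2 fold change was -0.48, as it was without si-C1GALT1-3 replicate 3. Without slide 1, 2 or 3 the median was -0.77, -0.68 and -0.77, a choice made after the data were seen.

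ETV4 and ETV5 had the largest differences of the 9 measured genes. Both belong to the PEA3 group of ETS transcription factors, which ERK induces and activates and which turn on invasion genes in epithelial tumors. ETV4 (A_24_P416346) had 12.64, 12.99 and 11.97 with si-Control and 11.23, 11.77 and 10.75 with si-C1GALT1-3. The groups did not overlap, although the lowest si-Control array and the highest si-C1GALT1-3 array lay close together, and the differences on slides 1, 2 and 3 were almost equal at -1.41, -1.22 and -1.22. The group means were 12.54 ± 0.52 and 11.25 ± 0.51 (SD, n = 3), a 2.43-fold difference. The log2 fold change was -1.28 (SE 0.37, limma adjusted p = 0.241), short of an unadjusted p under 0.01. With the slide as a block ETV4 was called (SE 0.12, limma adjusted p = 0.180), where 592 of all probes were called lower (1.02%). It was also called with 75th percentile normalization (-1.30), with another background correction, normexp (-1.18), with dim probes left out and without si-Control replicate 3 (-1.55).

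ETV5 (A_32_P30649) had 9.13, 9.34 and 8.81 with si-Control and 8.08, 8.52 and 8.09 with si-C1GALT1-3. All si-C1GALT1-3 arrays lay below all si-Control arrays, and the slides gave differences of -1.05, -0.82 and -0.72. The means of 9.09 ± 0.26 and 8.23 ± 0.25 (SD, n = 3) differed by 1.82-fold. The log2 fold change of -0.87 (SE 0.21, limma adjusted p = 0.189) had an unadjusted p under 0.01 but was under 2-fold. Without si-C1GALT1-3 replicate 2 it was -1.01 and passed both. ETV1, the third factor of the PEA3 group, had a log2 fold change of -0.71 over 5 arrays (SE 0.28, limma adjusted p = 0.380), with -1.28 on slide 1 and -0.35 on slide 3, since its si-Control array 2 value lay in the low region.

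The 3 phosphatases differed from each other in how far their arrays spread. DUSP4, a nuclear phosphatase of ERK and related kinases, had 13.50, 13.98 and 14.09 with si-Control and 12.97, 13.10 and 13.31 with si-C1GALT1-3 (A_23_P134935). These groups were separate and tight, with SDs of 0.31 and 0.17 (n = 3). DUSP4 was 1.66-fold lower (log2 fold change -0.73, SE 0.21, limma adjusted p = 0.235), with -0.54, -0.88 and -0.77 on the 3 slides.

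DUSP6 is the cytoplasmic phosphatase most specific to ERK, and its transcript is a common readout of ERK output. Its probe (A_23_P139704) had 16.53, 16.46 and 14.48 with si-Control and 15.18, 15.53 and 14.94 with si-C1GALT1-3. Si-Control array 3 stood about 2 units below the other si-Control arrays and below every si-C1GALT1-3 array, so the groups overlapped. The slides differed in sign, with -1.35 and -0.93 on slides 1 and 2 and 0.46 on slide 3. The log2 fold change over 6 arrays was -0.60 (SE 0.59, 95% interval -2.07 to 0.86, limma adjusted p = 0.709), so a difference between the groups was not resolved. Without si-Control replicate 3 it was -1.29 and called at p under 0.01 and 2-fold. Without si-Control replicate 1 or 2 it was -0.26 or -0.29 and not called. The reading of DUSP6 thus depended on which si-Control array was left out.

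DUSP5, a nuclear phosphatase restricted to ERK, was dim (A_23_P150018). Its signals were 7.34, 5.52 and 5.11 with si-Control and 3.89, 5.15 and 3.35 with si-C1GALT1-3. Of the si-Control arrays 2 of 3 had it well above background, and no si-C1GALT1-3 array did. The fold is therefore an approximate bound. Each si-C1GALT1-3 array was taken at the dimmest probe that was well above background, or at DUSP5 itself where it was brighter. The si-Control arrays were taken as measured, including array 3, where DUSP5 was not well above background. By this bound, which is not strict, DUSP5 was 1.64-fold lower. This bound rests on si-Control array 1, since without it the bound was 1.03-fold, and with each other array left out it was 1.56-fold to 2.23-fold. The measured means were 5.99 ± 1.19 and 4.13 ± 0.92 (SD, n = 3). The fit to these signals, of which only 2 of 6 were well above background, gave a log2 fold change of -1.86 (SE 0.74, limma adjusted p = 0.355), which became -1.18 without si-Control replicate 1 and -0.66 with normexp.

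The Sprouty and Spred transcripts lay lower by similar amounts. SPRY2, which restrains Ras activation below growth factor receptors, had 12.32, 12.998 and 12.23 with si-Control and 12.03, 12.21 and 11.14 with si-C1GALT1-3 (A_23_P128698). The groups were separate by a narrow margin, and the differences on slides 1, 2 and 3 were -0.29, -0.79 and -1.09. The log2 fold change was -0.72 (SE 0.36, 95% interval -1.61 to 0.17, limma adjusted p = 0.453).

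SPRY4, a relative of SPRY2 that is also induced by ERK, had 2 probes. The brighter (A_24_P269062) had 11.91, 12.27 and 10.92 with si-Control and 10.96, 11.56 and 10.42 with si-C1GALT1-3. The groups overlapped through si-Control array 3, yet the si-C1GALT1-3 array was lower on each slide, with differences of -0.95, -0.71 and -0.50. The log2 fold change of -0.72 had an SE of 0.45 across arrays (limma adjusted p = 0.546) and 0.14 with the slide as a block (limma adjusted p = 0.205). The other probe (A_33_P3338423), designed on another SPRY4 transcript, lay in the low region of si-Control array 2 and had 11.73 and 11.36 in si-Control replicates 1 and 3, against 11.08, 11.16 and 11.11 with si-C1GALT1-3. It gave a log2 fold change of -0.43 (SE 0.18, limma adjusted p = 0.397), and of 0.14 when the low spot was kept.

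SPRED1, which brings the Ras inhibitor neurofibromin to the membrane, had 10.01, 10.45 and 9.66 with si-Control and 9.49, 9.75 and 8.84 with si-C1GALT1-3 (A_24_P107859). The highest si-C1GALT1-3 array lay just above the lowest si-Control array. SPRED1 had a log2 fold change of -0.68 (SE 0.32, limma adjusted p = 0.421), and the slides gave -0.53, -0.70 and -0.83. With the slide as a block SPRED1 had an unadjusted p under 0.01 (SE 0.12, limma adjusted p = 0.195) but was under 2-fold, at 1.61-fold.

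PHLDA1 and FOSL1 showed the smallest differences. PHLDA1, a pleckstrin-homology-like protein whose transcript follows ERK activity, had 11.45, 12.27 and 11.25 with si-Control and 11.04, 11.72 and 10.88 with si-C1GALT1-3 (A_24_P915692). The groups overlapped, while the slides gave nearly the same difference, of -0.42, -0.54 and -0.37. PHLDA1 had a log2 fold change of -0.44 (SE 0.36 across arrays and 0.11 with the slide as a block, limma adjusted p = 0.646 and adjusted p = 0.233). FOSL1, which encodes the AP-1 subunit Fra-1, had 12.15, 12.19 and 12.17 with si-Control and 11.64, 11.70 and 12.26 with si-C1GALT1-3 (A_23_P161624). The si-Control arrays agreed to within an SD of 0.018 (n = 3), and si-C1GALT1-3 arrays 1 and 2 lay below them but array 3 did not. Its log2 fold change was -0.30 (SE 0.20, 95% interval -0.80 to 0.19, limma adjusted p = 0.569).

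**Figure D2:**
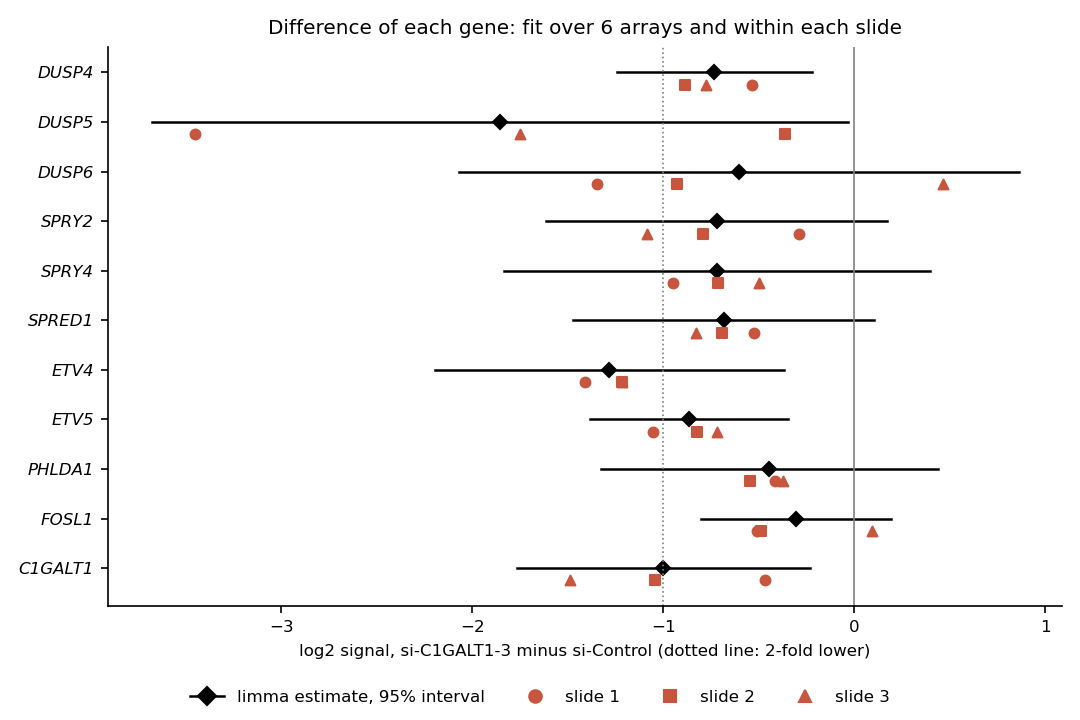
Difference in log2 signal between si-C1GALT1-3 and si-Control (x axis) for the 10 genes and C1GALT1. Diamonds and lines are the limma estimate over 6 arrays and its 95% interval, and the red marks below are the differences within slides 1, 2 and 3. The dotted line is 2-fold lower. The intervals of DUSP4, DUSP5, ETV4, ETV5 and C1GALT1 lie below 0, the marks of ETV4 and PHLDA1 lie closest together, and those of DUSP6 lie furthest apart among the 9 measured genes. The interval and marks of DUSP5 come from signals not well above background with si-C1GALT1-3, where its fold is an approximate bound.

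In the order of the fitted values, ETV4 came first among the 9 measured genes, followed by ETV5, DUSP4, SPRY2, SPRY4, SPRED1, DUSP6, PHLDA1 and FOSL1. The 95% intervals of all 9 overlapped, and differences between genes were not tested. With the slide as a block, the 7 genes DUSP4, SPRY2, SPRY4, SPRED1, ETV4, ETV5 and PHLDA1 had an unadjusted p under 0.05 and were lower, where 7.63% of all probes and 10.1% of the probes well above background on all 6 arrays did so. DUSP5, DUSP6 and FOSL1 did not.

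The start regions of the genes were read for the DNA motifs of factors that ERK controls, since these transcripts lay lower together. RefSeq (GRCh38.p14) gave 7 regions of 250 bases before a start for 5 of the 10 genes, DUSP6, PHLDA1, SPRED1, SPRY2 with 3 starts and SPRY4. The ETS letters GCGGAAG, on either strand, occurred in 2 of these 7 regions, of 2 different genes, and in 5.91% of 35116 such regions. Counted with the related form CCGGAAG, the share was again 2 of 7, against 13.3% of all regions. They began at position -62 of DUSP6, on the strand opposite to the gene, and at position -48 of PHLDA1, on the strand of the gene, and the capitals mark them here in the 5′ to 3′ direction of each gene. The DUSP6 region is chr12:89352502-89352751 and the PHLDA1 region chr12:76031777-76032026, both on the minus strand.
DUSP6: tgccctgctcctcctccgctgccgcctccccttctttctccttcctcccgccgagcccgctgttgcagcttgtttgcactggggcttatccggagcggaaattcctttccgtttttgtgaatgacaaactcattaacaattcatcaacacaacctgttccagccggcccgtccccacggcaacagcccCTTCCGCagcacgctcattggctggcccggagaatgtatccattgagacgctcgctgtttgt
PHLDA1: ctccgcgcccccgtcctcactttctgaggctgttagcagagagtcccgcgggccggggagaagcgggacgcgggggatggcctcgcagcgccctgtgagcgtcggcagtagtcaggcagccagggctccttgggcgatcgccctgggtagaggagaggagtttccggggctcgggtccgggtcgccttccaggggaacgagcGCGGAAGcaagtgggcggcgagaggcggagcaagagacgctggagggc

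The other letters searched on both strands were found in none of the 7 regions. These were CCGGAAG, which shares its last 6 letters with the motif above (8.52% of all regions), the AP-1 site TGANTCA (6.57%), the cyclic AMP response element TGACGTCA (1.65%), the octamers TGAATGAA and TGAATGGA of CIC, a repressor that ERK removes from ETV4 and ETV5 (2.19%), and the CArG box of SRF (1.16%). A match describes these letters only, and the regions are short. The genes with GCGGAAG, DUSP6 and PHLDA1, had log2 fold changes of -0.60 and -0.44, and SPRED1, SPRY2 and SPRY4 without it had -0.68, -0.72 and -0.72.

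The rest of the pathway was described with 4 lists of genes, ordered from the receptor down, and each gene was read from its brightest probe. The cascade itself, from the adaptors GRB2, SHC1 and GAB1 through Ras, Raf and MEK to ERK and the RSK kinases, had 22 genes, each well above background on every array with a value. These were 6 arrays for 20 of the genes and 5 for RASA1 and MAP2K2, which lay in the low region of si-Control array 2. None was called in either direction, and the median log2 fold change was 0.12, with 9 genes lower and 13 higher. MAPK3, which encodes the kinase ERK1, had a log2 fold change of 0.57 (SE 0.22, limma adjusted p = 0.340). The most negative value was that of GAB1, an adaptor below growth factor receptors, with 8.11, 8.70 and 8.95 with si-Control and 7.64, 7.93 and 7.88 with si-C1GALT1-3. Its log2 fold change was -0.77 (SE 0.25, limma adjusted p = 0.281), and without si-Control replicate 1 it was -1.02 and called. The most positive was that of NF1, neurofibromin, with 10.93, 11.11 and 10.85 against 11.91, 11.98 and 11.79. The groups of NF1 were far apart, at a log2 fold change of 0.93 (SE 0.14, limma adjusted p = 0.0979), just under 2-fold at 1.90-fold.

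The other feedback genes had values on both sides of 0. This list held 13 genes, which were 7 further DUSP genes, SPRY1, SPRY3, SPRED2, SPRED3, ERRFI1 and IL17RD. Some of these DUSP proteins act mainly on kinases related to ERK, so the list is not one of ERK feedback alone. Its median log2 fold change was 0.05, with 4 lower and 9 higher, and none called in either direction. ERRFI1, an inhibitor of the EGF receptor that is itself induced by ERK, had 13.89, 13.75 and 12.43 with si-Control and 12.23, 12.50 and 11.57 with si-C1GALT1-3. It was 2.39-fold lower (log2 fold change -1.26, SE 0.47, limma adjusted p = 0.329). Its lowest si-Control signal was on array 3, as for all of the 10 genes except DUSP4 and FOSL1. ERRFI1 was called lower with the slide as a block and without si-Control replicate 3 (-1.72). IL17RD, known as Sef, is an inhibitor of FGF and ERK signalling and lay the other way, with 9.06, 9.22 and 8.70 against 10.38, 10.41 and 9.53. The groups of IL17RD did not overlap and differed by 2.16-fold (log2 fold change 1.11, SE 0.30, limma adjusted p = 0.216), and IL17RD was called higher with the slide as a block and without si-C1GALT1-3 replicate 3 (1.39). The close relatives SPRY1 and SPRED2 had log2 fold changes of -0.24 (SE 0.25) and 1.09 (SE 0.86). For SPRED2, si-Control array 2 had 8.91 against 11.83 and 12.09 on arrays 1 and 3. The difference of SPRED2 was 3.24 on slide 2 but 0.012 and 0.0068 on slides 1 and 3.

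Among the transcription factors under ERK, 6 genes were measured, with 3 lower and 3 higher and a median log2 fold change of 0.05. ELK1 was among the higher, at 0.24 (SE 0.63), with 9.95 on si-Control array 2 against 11.99 and 12.25 on arrays 1 and 3. On slides 1 and 3 ELK1 was lower, at -0.55 and -0.41. ETS1, an ETS factor that ERK phosphorylates, was the 1 gene called. It had 8.51, 8.57 and 8.74 with si-Control and 7.44, 7.51 and 7.80 with si-C1GALT1-3, and its slides gave -1.07, -1.06 and -0.94. ETS1 fell 2.03-fold (log2 fold change -1.02, SE 0.16, limma adjusted p = 0.102), so close to 2-fold that it was short of the fold in 6 of the alternatives, at values from -0.99 to -0.82 (in 1 of them also of the p). ETS2 and CIC had 0.46 (SE 0.39) and -0.03 (SE 0.21).

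The 20 other outputs of the pathway were evenly split, with 10 lower, 10 higher and a median log2 fold change of -0.0025, and 1 was called. This median depended on single arrays, at -0.41 without si-Control replicate 3 and 0.20 without si-Control replicate 2. CCND1, the cyclin D1 that couples growth factors to the cell cycle, had 12.91, 13.30 and 14.24 with si-Control and 11.31, 11.54 and 12.44 with si-C1GALT1-3. It fell 3.30-fold (log2 fold change -1.72, SE 0.45, limma adjusted p = 0.213), with nearly the same difference on each slide (-1.59, -1.77 and -1.80) and an SE of 0.12 with the slide as a block. Leaving out si-Control replicate 2 or 3 or si-C1GALT1-3 replicate 1 or 2 took CCND1 out of the call, at log2 fold changes from -1.81 to -1.33. The probe of CCND1 also lay partly in the low region of si-Control array 2, so its 13.30 there came from spots outside it.

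The immediate early genes, the first to respond to ERK, made up 11 of the 20 when grouped by role after the values were seen. Of the 10 with signal above background, 9 were higher by fitted value and 1, EGR1, was lower, with a median log2 fold change of 0.38 and none at an unadjusted p under 0.05. Without si-Control replicate 3 they were 6 higher and 4 lower, with a median of 0.05. All 10 were higher without si-Control replicate 1 (median 0.40), si-Control replicate 2 (0.56) or si-C1GALT1-3 replicate 3 (0.62). Without si-C1GALT1-3 replicate 1 or 2 they were 8 higher and 2 lower, with medians of 0.31 and 0.25. FOS, the most positive value of the list, had 14.77, 15.47 and 12.44 with si-Control and 15.63, 15.81 and 14.30 with si-C1GALT1-3. FOS had a wide spread, and its log2 fold change was 1.02 (SE 0.87, limma adjusted p = 0.665). It was higher on each slide, by 0.85, 0.35 and 1.85, and the SE was 0.35 with the slide as a block. Without si-Control replicate 3, the lowest array of FOS, the log2 fold change was 0.12, and without si-Control replicate 2 it was 1.63. JUNB had 0.67 (SE 0.55), EGR1 -0.24 (SE 0.75) and MYC 0.37 (SE 0.17), and no array had EGR3 well above background. The groups of MYC did not overlap, and its slides gave 0.41, 0.31 and 0.39. MYC alone of the immediate early genes had an unadjusted p under 0.05 in limma with the slide as a block. Its value on si-Control array 2 came from spots outside the low region.

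The 4 ligands of the EGF receptor in the same list, also grouped by role after the values were seen, all had negative log2 fold changes. AREG had the most negative value of all 4 lists. Amphiregulin, the protein of AREG, is secreted, binds the EGF receptor and is induced by ERK. AREG had 13.13, 12.27 and 9.88 with si-Control and 9.05, 9.22 and 8.34 with si-C1GALT1-3. The groups were separate, but si-Control array 3 lay much nearer to the si-C1GALT1-3 arrays than the others did, as for DUSP6, and the slides gave -4.08, -3.04 and -1.55. AREG was 7.41-fold lower (log2 fold change -2.89, SE 0.85, limma adjusted p = 0.247) and was called with the slide as a block. AREG was also called when si-Control replicate 3 was left out, at -3.79, and leaving out si-Control replicate 1 gave -2.22. EREG, epiregulin, had -0.98 (SE 0.28, limma adjusted p = 0.240) and TGFA, transforming growth factor alpha, -0.86 (SE 0.26, limma adjusted p = 0.261), and the groups of both were separate. HBEGF overlapped between the groups, with -1.21 (SE 0.60, limma adjusted p = 0.449).

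**Figure D3:**
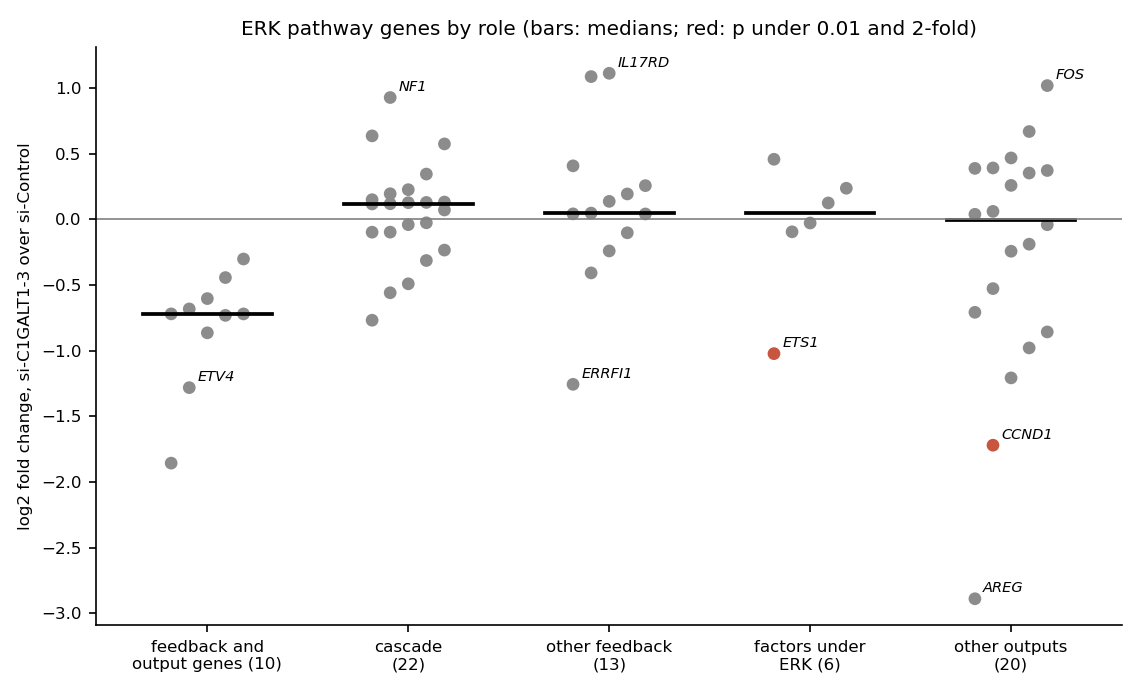
Log2 fold change of each gene (y axis), si-C1GALT1-3 over si-Control, for the 10 feedback and output genes and the 4 lists of the rest of the pathway (x axis, with the number of genes measured). Bars are medians, and red points passed p under 0.01 and 2-fold. The 10 genes all lie below 0 with a median of -0.72, while the medians of the lists lie between -0.0025 and 0.12 and only ETS1 and CCND1 are red.

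**Figure D4:**
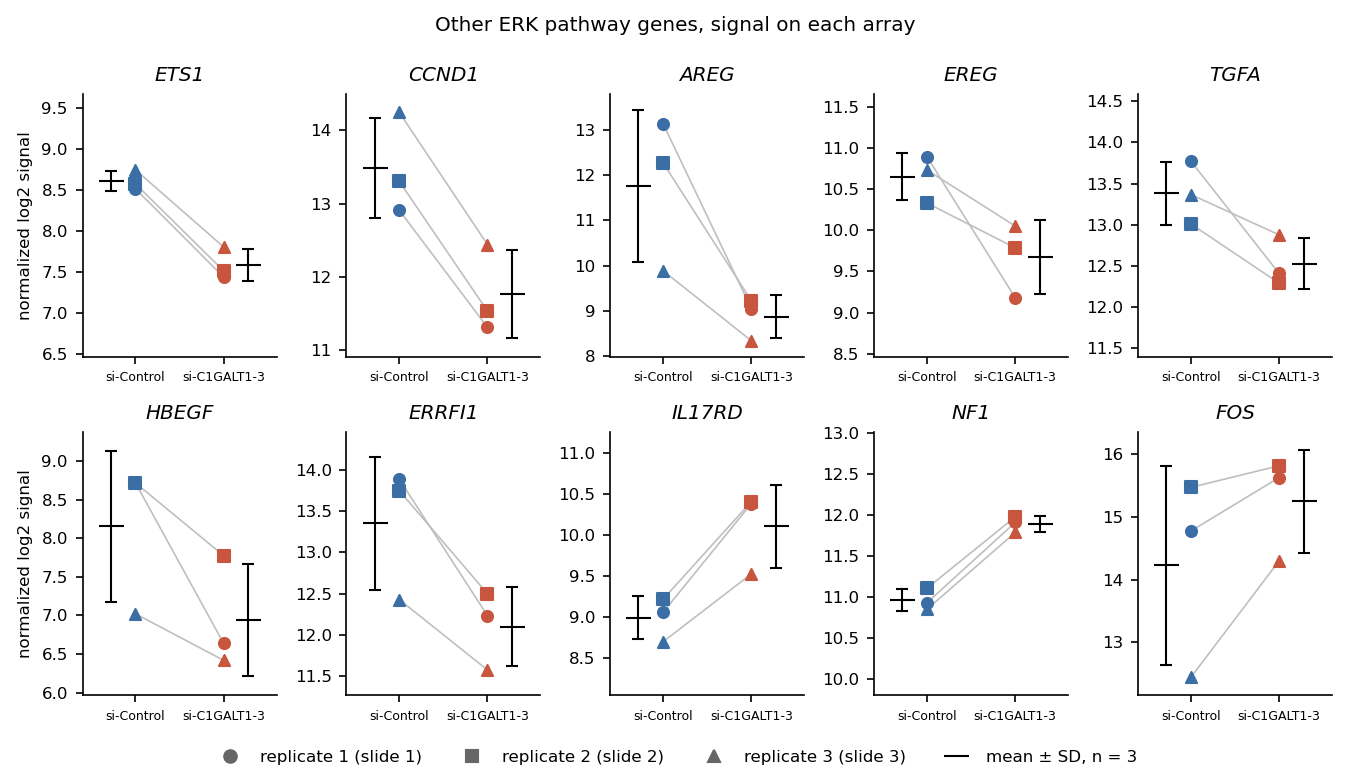
Normalized log2 signal (y axis) on each array for 10 other genes of the pathway, si-Control in blue and si-C1GALT1-3 in red. Grey lines join the arrays of 1 slide, and bars show mean ± SD, n = 3. The lines of AREG, CCND1, ERRFI1, ETS1, EREG, TGFA and HBEGF fall on all 3 slides and those of IL17RD, NF1 and FOS climb.

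The genes other than the 10 whose 6 values were most like the average of the 10, in which the dim DUSP5 has the widest spread, were GSTM4 (Pearson r = 0.994), EPAS1 (0.993) and PSAT1 (0.993), out of 18639 probes with a symbol and signals well above background on all 6 arrays. EPAS1 encodes a hypoxia-inducible factor and PSAT1 an enzyme of serine synthesis. PSAT1 had 13.49, 13.53 and 11.99 with si-Control and 11.22, 11.83 and 10.46 with si-C1GALT1-3, so it too was lowest of the si-Control arrays on array 3. Against the average of the 9 measured genes, a choice made after the data were seen, EPAS1 had r = 0.987, GSTM4 0.983 and PSAT1 0.972, and the closest were ELP2 (0.995), ARIH1 (0.995) and KLF12 (0.994). Which genes came closest thus depended on DUSP5. The 6 points are arrays that share slides in pairs, and the genes were picked as the closest of many.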

How the data were processed

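RNA of AGS cells was profiled on single-colour Agilent arrays, 3 for si-Control and 3 for si-C1GALT1-3, and samples were grouped by their labels. The authors deposited Agilent Feature Extraction (version 10.5.1.1, from the submitters' processing notes) output with the intensity of every spot. Its processed signal is corrected for background within the array and is not normalized between arrays. A deposited series table gives the intensity after background subtraction for these arrays. The quantile normalization and limma of the study come after these files.

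From the deposited intensity, log2 of the processed signal was taken, and control spots (2075 of 62976) were left out. Spots marked as non-uniform or population outliers, 100 to 424 per array, were set to missing, as were the spots of si-Control replicate 2 in lines 113 to 288 and columns 59 to 115 (9712 gene spots, 15.9%, which deviated from the other si-Control arrays by a median of -2.19 on the log2 scale, against -0.059 elsewhere). Arrays were quantile normalized, spots of a probe averaged and groups compared with limma 3.58.1 (lmFit, eBayes, two-sided) in R 4.3.3. Calls needed an unadjusted p under 0.01 and 2-fold, and p-values were adjusted by Benjamini-Hochberg over the 58195 probes tested. The code was tested on simulated data. Accessions gave 31100 probes a symbol and left 27101 without. A gene with several probes was read from the one with the highest mean log2 signal. ELK3 and the marker LYZ were not matched. The array files name another build than RefSeq's GRCh38.p14, so no probe coordinates are given.

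The 10 genes, the pathway lists and the marker lists were chosen with earlier results of these data known. The genes named are the 10, C1GALT1, the called genes of each list or else its largest rise and fall, and the 3 probes most like the mean of the 10. MAPK3, SPRY1, SPRED2, ELK1, ETS2, CIC, ETV1, FOS, JUNB, EGR1, EGR3, MYC, AREG, EREG, TGFA, HBEGF, RASA1, MAP2K2, SPRY3, SPRED3, ELP2, ARIH1, KLF12, COL1A1, COL1A2, DCN, LUM, COL3A1, VWF and PTPRC were named after their values were seen. Values of some genes of the lists are not reported here. Nothing in the labels says that samples came from separate cultures, so p-values measure only the spread between these samples, which may be technical. Replicate numbers were taken as pairs, since the scanner files put each number on 1 slide. Deviations from the group means correlated by 0.198, 0.215 and 0.329 between arrays of numbers 1, 2 and 3, over 48794 probes, and each array correlated best with its own number.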

Additional observations from a re-analysis of the deposited data

How the results depend on the processing

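The median of the 10 genes stayed negative in every setting, from -0.81 without the mask to -0.61 with no normalization between arrays, and from -0.93 to -0.48 with single arrays or slides left out. The medians of the 4 pathway lists moved by less than their spread between arrays, which for the other outputs was wide (SD 0.51), with a median from -0.41 without si-Control replicate 3 to 0.20 without si-Control replicate 2. With the slide as a replicate block, 1 of the 10 genes (ETV4, log2 fold change -1.28), 2 other outputs, and 1 other feedback gene in each direction were called, and the block changed no other call named in the report. The same count of 1 for the 10 genes was had with 75th percentile normalization, with normexp and with dim probes left out, each time ETV4, and 0 to 2 with single arrays left out, 2 without si-Control replicate 3 (ETV4 and DUSP6). C1GALT1 passed p under 0.01 only with dim probes left out (-1.0). Single arrays left out gave -1.20 to -0.75. Other outputs called lower were 2 with 75th percentile normalization, no mask, normexp or dim probes left out, 0 with the series table or the methods' t-test, and 0 to 1 with single arrays left out. Factors under ERK had 0 with no normalization, normexp or the series table, and 0 to 1 with single arrays left out. Other feedback genes called higher were 1 with the trend and robust prior or dim probes left out, and with single arrays left out 0 to 1 were higher and 0 to 1 lower, as were 0 to 1 of the cascade lower. Over all probes 920 were called with normexp and 896 with the methods' t-test, which left 2 after Benjamini-Hochberg adjustment. The 49 probes with an adjusted p under 0.05 in limma became 0 without the mask, with the slide as a block, with no normalization, with outlier spots kept, with the trend and robust prior and with any array left out, 31 with 75th percentile normalization, 74 with the series table, 429 with normexp and 545 with dim probes left out. Called higher and lower were 961 and 577 as reported, 474 and 706 without the mask, 783 and 295 with no normalization, 500 and 420 with normexp, and 560 and 336 with the methods' t-test. The second SPRY4 probe had 0.14 without the mask. The cause of these differences was not tested.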
